A study of Rattus norvegicus with 6 samples.

Results

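The 10 genes described here set the balance between growth and restraint of blood vessels, and they were chosen by name for their role. They are the growth factors *Vegfa*, *Vegfb*, *Vegfc* and *Pgf*, the receptors *Flt1* and *Kdr*, the vessel inhibitors *Thbs1* and *Serpinf1*, and the oxygen-regulated transcription factors *Hif1a* and *Epas1*. They account for 10 of the 61453 rows (assembled loci) of each deposited table, of which 20864 rows are annotated as protein_coding. RNA was measured by sequencing in corneal epithelium of male Brown Norway rats, 16 weeks after a single intraperitoneal dose of 50 mg/kg streptozocin (diabetic, STZ, 3 libraries) or of citrate buffer (normal, NOR, 3 libraries). Streptozocin destroys the insulin-producing cells of the pancreas, and a rat was taken as diabetic at a blood glucose over 16.67 mmol/l. The cornea was cut from the eye and its epithelium was scraped off with a blade. The RNA came from 6 corneas per group, and 6 rats were used in all. The sources used here give neither the age of the rats nor how corneas were combined into libraries, so the p-values measure the spread between these libraries, part of which may be technical.

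The normal cornea holds no blood vessels, and this state is kept by an excess of inhibitors over vessel growth factors. VEGF-A drives endothelial growth mainly through the receptor VEGFR2 (*Kdr*), while VEGFR1 (*Flt1*) binds VEGF-A, VEGF-B and placental growth factor (*Pgf*) tightly and acts in large part as a decoy, also in a soluble form that keeps the mouse cornea clear of vessels. Thrombospondin 1 (*Thbs1*) and pigment epithelium-derived factor (PEDF, *Serpinf1*) are secreted inhibitors, and HIF-1α (*Hif1a*) and HIF-2α (*Epas1*) switch on *Vegfa* and other genes when oxygen is low.

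Total counts ran over 62288901 to 87040253 in STZ libraries and 76500184 to 81139312 in NOR libraries, so that 0 counts in a library still allowed up to 0.0345 to 0.0482 CPM (counts scaled to library size), a limit that covers counting error only. Corneal epithelium was the main tissue in every library. *Krt12*, the keratin that defines it, stood at 3858 to 4455 FPKM in STZ and 3660 to 4223 FPKM in NOR (FPKM scales the fragments of a locus by its length and by library size), and the 8 markers of this epithelium summed to 15011 to 16759 FPKM in STZ and 15211 to 15552 FPKM in NOR. Other tissues of the eye were present as well. Summed lens markers reached 1301 FPKM in STZ replicate 2 and only 3.28 FPKM in STZ replicate 3, against 108 to 362 FPKM in NOR. STZ replicates 2 and 3 lay apart from the other 4 libraries on the first principal component, which held 26.2% of the variance.

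All 10 genes had a start site in the RefSeq promoter table for the rat build GRCr8, with 11 start sites because *Vegfa* has 2. The 250 bases before each start were searched on both strands for the core of the HIF binding motif, ACGTG or GCGTG. The search found it upstream of 6 of the 10 genes. That was 6 of their 11 windows, against 36.7% of all 33469 windows of this length. The windows of these genes were richer in G and C than the rest, with a median of 69.2% against 51.2%. The windows of *Hif1a*, *Kdr* and *Flt1*, which hold the motif, and the first of *Vegfa*, the textbook HIF target, are printed 5′ to 3′ on the gene's own strand, with the motif in capitals.
Hif1a, chr6:98359648-98359897, plus strand: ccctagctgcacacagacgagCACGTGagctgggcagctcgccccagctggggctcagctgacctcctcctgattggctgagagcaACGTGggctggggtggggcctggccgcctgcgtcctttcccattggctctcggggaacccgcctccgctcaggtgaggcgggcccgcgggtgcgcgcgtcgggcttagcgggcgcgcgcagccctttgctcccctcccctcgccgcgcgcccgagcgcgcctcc
Kdr, chr14:32571813-32572062, plus strand: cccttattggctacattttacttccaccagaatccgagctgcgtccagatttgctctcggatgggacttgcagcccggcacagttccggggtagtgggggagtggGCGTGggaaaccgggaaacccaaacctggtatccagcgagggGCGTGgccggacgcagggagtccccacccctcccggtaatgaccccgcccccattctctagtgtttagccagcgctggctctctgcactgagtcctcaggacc
Flt1, chr12:12333180-12333429, plus strand: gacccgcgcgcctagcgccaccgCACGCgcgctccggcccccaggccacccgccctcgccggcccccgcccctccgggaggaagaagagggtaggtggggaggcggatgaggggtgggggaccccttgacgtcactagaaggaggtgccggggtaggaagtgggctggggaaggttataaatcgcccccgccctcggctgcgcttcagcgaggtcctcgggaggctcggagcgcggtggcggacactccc
Vegfa, chr9:22452604-22452853, plus strand: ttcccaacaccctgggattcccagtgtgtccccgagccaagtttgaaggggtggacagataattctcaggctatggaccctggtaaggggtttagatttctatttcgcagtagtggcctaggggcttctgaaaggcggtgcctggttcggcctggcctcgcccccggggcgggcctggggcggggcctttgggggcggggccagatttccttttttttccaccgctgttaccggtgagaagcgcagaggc
*Hif1a* carried 3 matches, of which 2 overlap as the palindrome CACGTG and one stands alone. *Kdr* carried GCGTG at 2 places, and *Flt1* carried it once, on the other strand (CACGC). Neither window of *Vegfa* held these letters. Sequence farther upstream than 250 bases was not searched, so a match there would be missed. The windows of *Vegfb*, *Pgf* and *Serpinf1* each had 1 match, and those of *Vegfc*, *Thbs1* and *Epas1* had none. The *Epas1* window lies on the minus strand of GRCr8, while the deposited tables place the gene on the plus strand of rn6, so that window is uncertain. A match is a run of letters and not a measured binding site.

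None of the 9 testable genes passed the threshold between STZ and NOR, which was a Benjamini-Hochberg adjusted p under 0.05 by limma with a fold change over 1.2. Of all 42551 rows tested, 0.0259% passed it. The quasi-likelihood test of edgeR on the counts called 0 of the 9 genes as well, against 0.0141% of all rows, and DESeq2 called 0, against 0.233%. At an unadjusted p under 0.05, limma had 0 of the 9 genes, against 4.80% of all rows. edgeR had 2, *Flt1* and *Thbs1*, against 4.14% of all rows, and DESeq2 had the same 2 genes, against 4.99% of all rows. In FPKM the 3 libraries of each group did not overlap for 1 of the 9 genes, *Thbs1*, against 9.66% of all rows. The log2 fold change was above 0 for 3 of the 9 genes, against 49.0% of all rows, with a median of -0.14, against -0.0049 over all rows. *Pgf* fell below the filter of a mean of 0.5 FPKM and is described by its counts.

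Per length, the genes fell into tiers. *Epas1*, *Thbs1* and *Serpinf1* were highest, with means over the 6 libraries of 41.7, 37.9 and 29.9 FPKM, and their ranges overlapped. *Epas1* lay above 97.7% of the protein_coding rows. *Hif1a* followed at 7.49 FPKM, below all values of *Serpinf1* and above all values of *Kdr* (4.58 FPKM). *Vegfa* (4.33 FPKM) reached the range of *Hif1a* in STZ replicate 3. *Kdr* and *Vegfa* overlapped and *Kdr* was the higher of them in 3 of the 6 libraries. *Vegfb* (1.40 FPKM), *Flt1* (1.05 FPKM) and *Vegfc* (0.694 FPKM) formed a low tier in which neighbours overlapped, and *Pgf* lay below them at 0.0366 FPKM. Both inhibitors therefore exceeded every VEGF family ligand in each library, and the ratio of *Thbs1* to *Vegfa* in FPKM was 10.2, 7.93 and 4.54 in STZ replicates 1, 2 and 3, against 7.69, 15.4 and 12.8 in NOR replicates 1, 2 and 3.

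**Figure D1:**
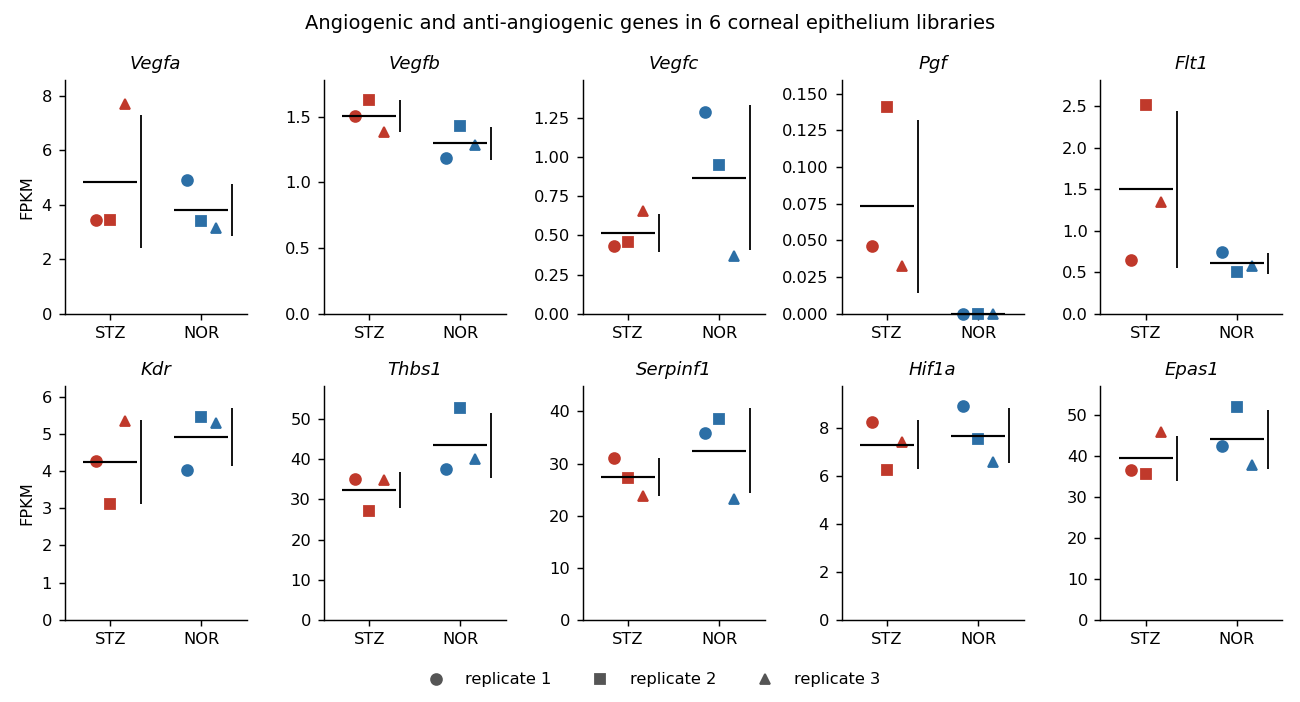
FPKM of the 10 genes in STZ libraries (left, red) and NOR libraries (right, blue), with an axis of its own for each gene. Points are libraries, the horizontal line is the group mean and the vertical line at its side spans 1 SD on either side (n = 3). The groups are apart for *Thbs1*, with 27.2 to 35.1 FPKM in STZ and 37.7 to 52.7 FPKM in NOR, and for *Pgf*, which is at 0 in NOR.

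Among the ligands, *Vegfa* (rn6, chr9:17340341-17355681, plus strand) supplied the larger part of VEGF family RNA. It measured 3.44, 3.43 and 7.68 FPKM in STZ replicates 1, 2 and 3, against 4.90, 3.42 and 3.13 FPKM in NOR replicates 1, 2 and 3. STZ replicate 3 stood alone at the top, and the other 2 STZ libraries lay within the NOR range. The group means were 4.85 ± 2.45 FPKM in STZ and 3.82 ± 0.951 FPKM in NOR (SD, n = 3 each). limma gave a log2 fold change of 0.25 with a standard error of 0.28 and a 95% interval of -0.41 to 0.90 (adjusted p = 0.963), and without STZ replicate 3 it was -0.074. Summed markers of the conjunctiva, the tissue beside the cornea, were lowest in that library. They stood at 1223, 1189 and 550.2 FPKM in STZ replicates 1, 2 and 3, against 870 to 1442 FPKM in NOR. One of these markers, *Krt19*, is on a joined row that also carries *Krt14*, listed for corneal epithelium, so the sum is not specific to conjunctiva. Its part in the *Vegfa* value was not tested. The row joins 8 transcript models, so the splice forms of *Vegfa* could not be told apart. Of the summed FPKM of *Vegfa*, *Vegfb*, *Vegfc*, *Vegfd* and *Pgf*, *Vegfa* made up 54.7%, 51.9% and 72.1% in STZ replicates 1, 2 and 3, against 60.2%, 51.0% and 55.8% in NOR replicates 1, 2 and 3.

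*Vegfb* (chr1:222237068-222242644, minus strand), a ligand of VEGFR1 linked to cell survival and fatty acid uptake more than to vessel sprouting, was the steadiest of the 10 genes, with a coefficient of variation of 11.3% over the 6 libraries. Its values were 1.51, 1.63 and 1.39 FPKM in STZ, against 1.18, 1.43 and 1.28 FPKM in NOR. STZ replicates 1 and 2 lay above all NOR libraries, and STZ replicate 3 lay below NOR replicate 2. Its log2 fold change of 0.14 had a standard error of 0.15 and an interval of -0.22 to 0.49 (limma, adjusted p = 0.963).

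*Vegfc* (chr16:40440207-40555576, minus strand), the main growth factor of lymphatic vessels, measured 0.434, 0.458 and 0.658 FPKM in STZ, against 1.29, 0.954 and 0.368 FPKM in NOR. NOR replicates 1 and 2 were the 2 highest libraries, and NOR replicate 3 was the lowest of all 6. These values rest on 92, 70 and 104 counts in STZ and 248, 178 and 74 counts in NOR. Between the groups the log2 fold change was -0.26 with a standard error of 0.28 on the log2(FPKM + 1) scale (limma, adjusted p = 0.962) and -0.73 on the counts (edgeR, adjusted p = 0.991), since adding 1 compresses the change of a gene at this level. By limma it was -0.089 without NOR replicate 1 and -0.47 without NOR replicate 3. Another 6 short unstranded rows carry the name *Vegfc* and held 39.9% to 349% as many counts as this row. With all rows of the name summed, the log2 fold change was -0.60 by limma and -0.69 by edgeR (adjusted p = 0.953 and 0.991). Summed markers of keratocytes, the stromal cells below the epithelium, were likewise highest in NOR replicates 1 and 2, at 764, 771 and 839 FPKM in STZ, against 1062, 1068 and 837 FPKM in NOR. The sum rests on the most abundant markers, and the mean deviation of the 9 markers on the log2 scale was -0.49, 0.16 and 0.13 in STZ, against 0.25, -0.014 and -0.036 in NOR. Their part in the *Vegfc* values was not tested. In bulk tissue such as this, fewer cells of a type and less RNA per cell cannot be told apart.

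*Pgf* (chr6:108994018-109004598, minus strand), placental growth factor, was at the edge of detection. It had 8, 16 and 4 counts in STZ replicates 1, 2 and 3 and 0 counts in each NOR library. Every STZ library held a trace, and none was detectable in NOR at this depth. Pooled, STZ had 28 counts of 213592284 (0.131 CPM). In NOR, 0 of 236620349 counts allowed up to 0.0127 CPM with a floor of 3 counts for the whole group. The pooled STZ value was 10.3-fold above that limit. Without STZ replicate 2, which held 16 of the 28 counts, it was 6.26-fold above. These ratios cover counting error in NOR only, not counting error in STZ or the spread between libraries. Without a filter on low values, the unadjusted p was 0.0163 by edgeR (adjusted p = 0.954) and 0.0452 by limma (adjusted p = 1.00). Of the 20864 protein_coding rows, 24 (0.115%) had 0 counts in all NOR libraries and at least 1 count in every STZ library, and 31 (0.149%) had the reverse pattern.

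The receptors differed in how steady they were. *Kdr* (chr14:34727623-34787183, plus strand), the receptor through which VEGF-A drives endothelial cells, measured 4.26, 3.11 and 5.36 FPKM in STZ, against 4.03, 5.44 and 5.29 FPKM in NOR. STZ replicate 2 was the lowest library and the groups overlapped. Its log2 fold change was -0.17 with a standard error of 0.18 and an interval of -0.59 to 0.24 (limma, adjusted p = 0.961). Without STZ replicate 2 it was -0.021, and without STZ replicate 3 it was -0.32. Summed markers of the corneal endothelium, the inner cell layer of the cornea, were lowest in the same library, at 71.1, 45.4 and 80.7 FPKM in STZ, against 76.7, 83.0 and 54.2 FPKM in NOR. Their part in the *Kdr* values was not tested.

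*Flt1* (chr12:9034308-9205905, plus strand) varied most of the 9 tested genes, with a coefficient of variation of 73.6%. Its counts were 444, 1244 and 690 in STZ replicates 1, 2 and 3, against 467, 305 and 376 in NOR, and its FPKM were 0.643, 2.51 and 1.35 in STZ, against 0.742, 0.501 and 0.577 in NOR. STZ replicates 2 and 3 lay above all NOR libraries, while STZ replicate 1 lay inside the NOR range. The means were 1.50 ± 0.944 FPKM in STZ and 0.607 ± 0.124 FPKM in NOR (SD, n = 3 each). The log2 fold change was 0.58 with a standard error of 0.30 and an interval of -0.12 to 1.28 on the log2(FPKM + 1) scale (limma, adjusted p = 0.953).

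On the counts of *Flt1*, the log2 fold change was 1.34 by edgeR (adjusted p = 0.991) and 1.34 by DESeq2 (adjusted p = 0.259). Leaving out STZ replicate 2, the highest library, gave 0.29 by limma and 0.71 by edgeR, and leaving out STZ replicate 1 gave 0.85 by limma (adjusted p = 0.474) and 1.70 by edgeR (adjusted p = 0.311). *Flt1* made up 13.1%, 44.7% and 20.1% of the summed FPKM of *Flt1* and *Kdr* in STZ replicates 1, 2 and 3, against 15.6%, 8.42% and 9.84% in NOR replicates 1, 2 and 3. Its share was highest in STZ replicates 2 and 3, which were also the 2 libraries lowest in summed immediate early genes, at 416, 134 and 151 FPKM in STZ, against 272, 231 and 405 FPKM in NOR. The part of these genes, which respond to handling of tissue within minutes, in the *Flt1* values was not tested.

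The value of *Flt1* depends on which row is read. The row used holds the annotated transcript of the gene, and 5 further unstranded rows of 256 to 464 bases within its span carry the same name, with 50.4% to 168% as many counts in a library. The most covered of them (chr12:9163955-9164223) had 16.1, 20.0 and 7.31 FPKM in STZ, against 15.4, 18.4 and 11.2 FPKM in NOR. This short row was lowest in STZ replicate 3 and gave a log2 fold change of -0.11 (limma). With all rows of the name summed, the log2 fold change was 0.27 by limma and 0.86 by edgeR on the counts. The soluble and membrane-bound forms of VEGFR1 were not separated in these rows.

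Vascular endothelial cells, in which both receptors are best known, left little RNA in these libraries. Of 14 listed markers 13 were found, and 10 of them never exceeded 0.327 FPKM, among them *Cdh5* and *Tie1*, while *Robo4* was at 0 counts in all 6 libraries. The other 3 were *Erg*, at 3.66, 2.73 and 4.73 FPKM in STZ against 4.46, 4.42 and 5.21 FPKM in NOR, with *Eng* and *Vwf* at 1.84 to 2.93 FPKM over all libraries. *Kdr* was thus present at a level like that of *Erg*, while 10 of the 13 markers found were at or near 0. The 13 markers summed to 7.34 to 10.4 FPKM in STZ and 9.98 to 11.1 FPKM in NOR, and in STZ replicate 2, where *Flt1* was highest, the sum was the lowest of all. The sum rests mostly on *Erg*, *Eng* and *Vwf*. The mean deviation of the 13 markers on the log2 scale was lowest in STZ replicate 1, at -0.064, with STZ replicate 2 at -0.050. The part of endothelial cells in the *Flt1* values was not tested.

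**Figure D2:**
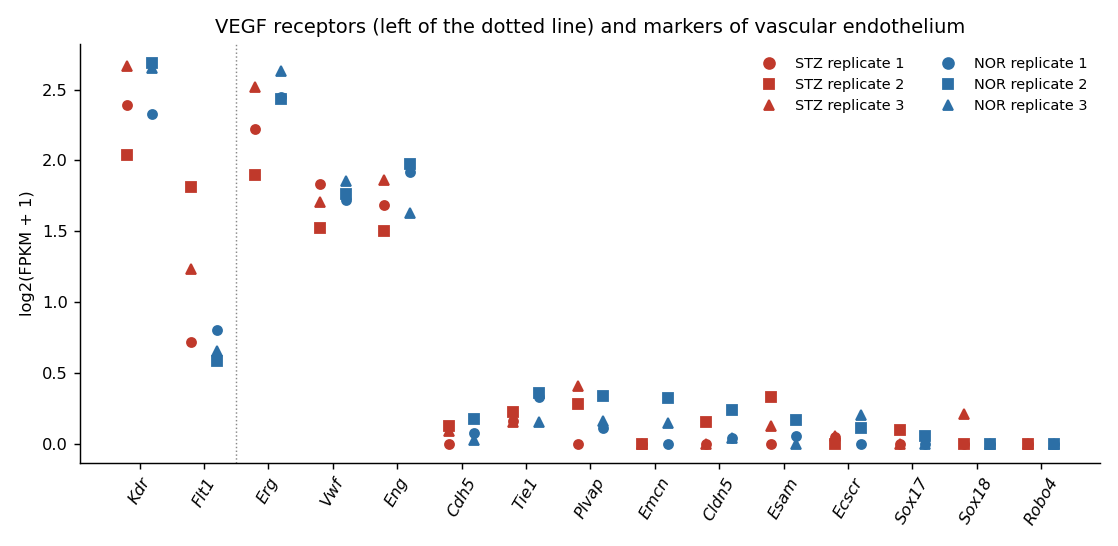
log2(FPKM + 1) of *Kdr* and *Flt1* (left of the dotted line) and of 13 markers of vascular endothelium in each STZ library (red, left of each pair) and NOR library (blue, right of each pair). *Kdr*, *Erg*, *Vwf* and *Eng* are well above 0 in every library, the other 10 markers never exceed 0.327 FPKM, and *Flt1* is spread widely in STZ.

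Of the inhibitors, *Thbs1* (chr3:109862117-109875638, plus strand), a matrix glycoprotein that blocks endothelial growth, was the one gene of the 9 tested whose groups did not overlap. It measured 35.1, 27.2 and 34.9 FPKM in STZ, against 37.7, 52.7 and 40.1 FPKM in NOR. All STZ libraries lay below all NOR libraries, as 5.72% of all rows tested did, and the gap between STZ replicate 1 and NOR replicate 1 was small. After quantile normalization the groups overlapped, with STZ replicate 3 at 5.27 and NOR replicate 1 at 5.24 on the log2(FPKM + 1) scale. The means were 32.4 ± 4.52 FPKM in STZ and 43.5 ± 8.08 FPKM in NOR (SD, n = 3 each). For *Thbs1* the log2 fold change was -0.38 with a standard error of 0.17 and an interval of -0.76 to 0.0075 (limma, adjusted p = 0.953), and -0.40 on the counts (edgeR, adjusted p = 0.991). Leaving out NOR replicate 2, the highest library, moved the log2 fold change to -0.24 (limma), and leaving out STZ replicate 2, the lowest, moved it to -0.25.

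*Serpinf1* (chr10:62241756-62254287, minus strand), which encodes PEDF, measured 31.1, 27.2 and 23.8 FPKM in STZ, against 35.9, 38.5 and 23.1 FPKM in NOR. NOR replicates 1 and 2 were above all STZ libraries, but NOR replicate 3 was the lowest of all 6. The log2 fold change was -0.20 with a standard error of 0.18 and an interval of -0.62 to 0.23 (limma, adjusted p = 0.956). It was -0.072 without NOR replicate 2 and -0.40 without NOR replicate 3 (limma, adjusted p = 0.983). *Serpinf1* and *Thbs1* were close in level, with a ratio of *Thbs1* to *Serpinf1* in FPKM of 1.13, 0.999 and 1.47 in STZ and 1.05, 1.37 and 1.73 in NOR.

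The HIF subunits overlapped between the groups. *Hif1a* (chr6:96803005-96856052, plus strand) measured 8.27, 6.25 and 7.41 FPKM in STZ, against 8.90, 7.55 and 6.60 FPKM in NOR. The groups overlapped almost entirely, and the log2 fold change was -0.047 with a standard error of 0.14 and an interval of -0.38 to 0.28 (limma, adjusted p = 0.985). An unstranded row of 400 bases also carries the name *Hif1a*, with 2.56, 1.97 and 2.31 FPKM in STZ, against 3.32, 3.50 and 2.66 FPKM in NOR. In that row STZ lay below NOR without overlap, as in 5.72% of all rows tested. It held 0.490% to 0.733% as many counts as the row used. With both rows summed, the log2 fold change of *Hif1a* was -0.15 by limma and -0.053 by edgeR. *Epas1* (chr6:10305991-10387266, plus strand) measured 36.7, 35.7 and 45.8 FPKM in STZ, against 42.5, 51.9 and 37.8 FPKM in NOR. STZ replicate 3 lay above 2 of the NOR libraries, and the log2 fold change was -0.14 with a standard error of 0.17 and an interval of -0.53 to 0.25 (limma, adjusted p = 0.963). It was -0.021 without NOR replicate 2 and -0.30 without STZ replicate 3.

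The lower FPKM of *Hif1a* comes with a long implied length, although its locus of 53048 bases is shorter than that of *Epas1* (81276 bases). The counts of *Hif1a* divided by its FPKM and by the library total implied a length of 29040 bases. For the other 9 genes it was 1767 to 7964 bases. The *Hif1a* row joins 11 transcript models. In counts, which ignore length, the ratio of *Epas1* to *Hif1a* was 0.927, 1.19 and 1.29 in STZ and ran over 0.997 to 1.44 in NOR, so that the 2 genes drew similar numbers of reads in both groups. A minus-strand row of 1656 bases inside *Epas1* also carries its name, with 164, 129 and 213 counts in STZ, against 367, 293 and 277 counts in NOR. All STZ libraries lay below all NOR libraries in this small row, as in 5.72% of all rows tested. It held 0.851% to 1.80% as many counts as the row used. HIF-α subunits are regulated mostly by breakdown of the protein, which RNA does not measure.

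**Figure D3:**
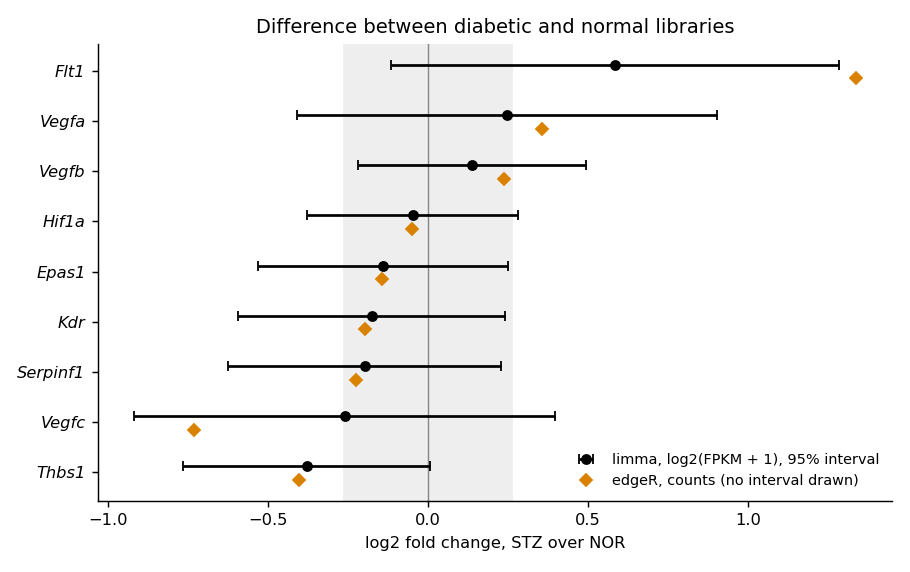
log2 fold change of STZ over NOR for the 9 tested genes, ordered from highest to lowest, as fitted by limma on log2(FPKM + 1) with its 95% interval (black) and by edgeR on the counts (orange). The grey band spans fold changes up to 1.2 either way. Every interval includes 0, and edgeR differs most from limma for the low genes *Flt1* (1.34 against 0.58) and *Vegfc* (-0.73 against -0.26).

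Other genes of the same pathways came from 7 lists, and none of their tested genes passed limma or edgeR. Of the other VEGF genes 3 of 4 were tested, with 1 above and 2 below 0. *Nrp2*, a co-receptor for VEGF-C and semaphorins, measured 3.58, 1.81 and 2.97 FPKM in STZ, against 4.68, 4.48 and 4.06 FPKM in NOR. Its STZ libraries all lay below its NOR libraries, with a log2 fold change of -0.53 and a standard error of 0.19 (limma, adjusted p = 0.953). The co-receptor *Nrp1*, whose row also carries a microRNA name, averaged 2.87 FPKM in STZ and 3.30 FPKM in NOR. *Vegfd* averaged 0.903 FPKM in STZ and 0.831 FPKM in NOR, and the lymphatic receptor *Flt4* 0.222 FPKM in STZ and 0.159 FPKM in NOR. All 5 angiopoietin and Tie genes (*Angpt1*, *Angpt2*, *Angpt4*, *Tek* and *Tie1*) were under the filter, with sums of 1.11 to 1.58 FPKM in STZ and 1.33 to 1.54 FPKM in NOR.

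Of 11 other angiogenic factors found, 5 were tested, 2 above and 3 below 0, with a median log2 fold change of -0.27, against -0.0049 over all rows. *Cxcl12*, a chemokine that recruits vessel progenitors, measured 1.14, 1.31 and 1.43 FPKM in STZ, against 2.64, 2.09 and 3.94 FPKM in NOR. Its STZ libraries were close together and below all NOR libraries, and the log2 fold change was -0.72 with a standard error of 0.19 (limma, adjusted p = 0.953). On the counts it was -1.13 by edgeR (adjusted p = 0.991), while DESeq2 called *Cxcl12* (adjusted p = 0.0138). That was the one call by any of the 3 tools in these lists, and DESeq2 called 0.233% of all rows. *Adm*, the vasodilator peptide adrenomedullin, measured 3.29, 3.34 and 3.42 FPKM in STZ, against 4.52, 3.85 and 4.53 FPKM in NOR, with a log2 fold change of -0.27 (limma, adjusted p = 0.953). *Hgf*, a growth factor for epithelium and vessels, was under the filter at 0.295, 0.137 and 0.306 FPKM in STZ, against 0.310, 0.621 and 0.351 FPKM in NOR, also without overlap. *Pdgfa*, the highest of the list, averaged 4.34 FPKM in STZ and 4.31 FPKM in NOR.

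Of 12 other anti-angiogenic factors found, 7 were tested, 3 above and 4 below 0, with a median log2 fold change of -0.050, and the groups overlapped for each of the 12. *Thbs2*, the closest relative of *Thbs1*, measured 16.2, 12.6 and 15.4 FPKM in STZ, against 18.5, 20.4 and 12.7 FPKM in NOR. *Adamts1*, a secreted protease that binds VEGF-A, ranged widely in both groups, with 4.50, 6.58 and 12.5 FPKM in STZ, against 10.7, 8.73 and 4.90 FPKM in NOR. *Sema3f*, on a row that also carries *Gnat1* and is uncertain for that reason, averaged 8.77 FPKM in STZ and 7.83 FPKM in NOR. Of the receptors, *Cd47*, which binds thrombospondin, averaged 11.4 FPKM in STZ and 11.1 FPKM in NOR, and *Pnpla2*, which binds PEDF, 7.97 FPKM in STZ and 7.42 FPKM in NOR.

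Of 9 partners and regulators of HIF, 8 were tested, 3 above and 5 below 0, with a median log2 fold change of -0.016. *Egln3*, a prolyl hydroxylase that marks HIF-α for breakdown and is itself induced by HIF, measured 35.9, 39.9 and 37.3 FPKM in STZ, against 28.9, 30.1 and 32.8 FPKM in NOR. All its STZ libraries lay above its NOR libraries, as 3.94% of all rows did, with a log2 fold change of 0.31 and a standard error of 0.10 (limma, adjusted p = 0.953). *Cited2*, which competes with HIF for its coactivator, averaged 35.1 FPKM in STZ and 36.1 FPKM in NOR, and the dimer partner *Arnt2* 10.4 FPKM in STZ and 10.7 FPKM in NOR. Of 18 tested hypoxia response genes 10 were above and 8 below 0, with a median of 0.011, and the groups overlapped for each. The highest were the glycolytic enzymes *Eno1*, with means of 195 FPKM in STZ and 183 FPKM in NOR, *Aldoa*, with 117 FPKM in STZ and 115 FPKM in NOR, and *Ldha*, with 113 FPKM in both groups.

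**Figure D4:**
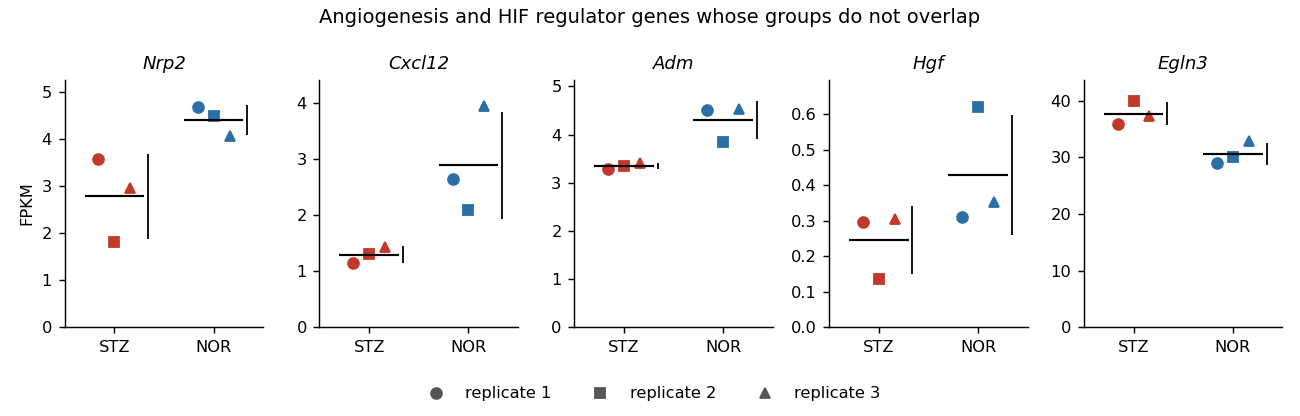
FPKM of the 5 genes of the angiogenesis and HIF lists, beside *Thbs1* and *Pgf*, whose STZ libraries (left, red) and NOR libraries (right, blue) did not overlap. They were drawn for that reason, and 4 of 43 tested genes of these lists did not overlap (9.30%), against 9.66% of all rows. Points are libraries, lines are means and the vertical line at the side spans 1 SD on either side (n = 3). *Nrp2*, *Cxcl12*, *Adm* and *Hgf* are lower in every STZ library, and *Egln3* is higher (35.9 to 39.9 FPKM in STZ, 28.9 to 32.8 FPKM in NOR).

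Markers of the other cell types in the scrape were read for the same comparison. The 9 keratocyte markers found had a median log2 fold change of -0.25, with 7 below 0, and *Lum*, a stromal proteoglycan, measured 102, 123 and 121 FPKM in STZ, against 168, 148 and 172 FPKM in NOR, without overlap. *Lum* was the one keratocyte marker of the 9 without overlap, against 9.66% of all rows tested. *Ptgds* stood at 1.02 and *Col3a1*, on a row with a joined name, at 0.033. The part of stromal cells in the values of *Cxcl12*, *Hgf*, *Nrp2* and *Thbs1* was not tested. The corneal epithelium and conjunctiva lists share the joined row of *Krt14* and *Krt19*. The median log2 fold change was -0.13 for 8 corneal epithelium markers, -0.22 for 3 conjunctiva markers, -0.063 for 3 corneal endothelium markers and 0.14 for 11 lens markers. It was -0.41 for the 9 tested immediate early genes, -0.14 for 3 tested endothelial markers and -0.0089 for 4 tested macrophage markers, which summed to 30.5 to 36.1 FPKM in STZ and 31.5 to 32.8 FPKM in NOR over the 11 found. Of 4 lymphatic markers only *Pdpn* was tested (-0.10), while *Lyve1* never exceeded 0.201 FPKM, *Ccl21* averaged 0.279 FPKM in STZ and 0.388 FPKM in NOR, and *Prox1* 0.650 FPKM in STZ and 0.258 FPKM in NOR. Without a filter on low values, the unadjusted p of *Prox1* was 0.566 by limma and 0.281 by edgeR (adjusted p = 0.954 by edgeR). No gene of these lists passed limma, edgeR or DESeq2. DESeq2 gave no p-value for the lens markers *Crygb*, *Crygd*, *Mip* and *Lim2* and the immediate early gene *Atf3*, so these could not pass it.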

How the data were processed

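RNA of 3 STZ and 3 NOR libraries was analysed, grouped by their labels. The submitters' processing notes name cutadapt, FastQC, Bowtie2 and the build rn6. The program that assembled and counted the loci, the tool versions and the use of strand were not given in the sources used here. The authors deposited raw counts for each locus beside FPKM, which scale counts by locus length and library size. A placeholder of 0.0001 FPKM stood at 86380 values with 0 counts and was set to 0.

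The study took log2 values, normalized them with affy and tested them with limma at a fold of 1.2. Here log2(FPKM + 1) of the 42551 rows with a mean of at least 0.5 FPKM was quantile-normalized and fitted by limma 3.58.1 in R 4.3.3 (eBayes with trend). Counts of the same rows were tested with edgeR 4.0.16 (TMM, quasi-likelihood) and DESeq2 1.42.0, and p-values were adjusted over all rows. The tests were checked on simulated counts that had the same dispersion in every row and changes larger than the threshold. Changes at the threshold were not simulated, so the check does not cover them. Reading used pandas 2.3.3 and the R package data.table (1.17.8), and plotting used matplotlib 3.10.9 under Python 3.11.15.

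For each gene the protein_coding row of highest mean FPKM was read, with joined names split. For *Nrp1*, *Arnt*, *Tie1*, *Egr3*, *Col3a1* and *Aif1* that row lists several types, which departs from the rule as first written. Of 144 other listed genes 135 were found, in 16 lists. Lists of at most 5 genes are named as far as a row was matched, and others by their 3 highest genes and any that passed or did not overlap. For the marker lists of corneal epithelium, conjunctiva, keratocytes, corneal endothelium, lens, macrophages and immediate early genes only those that touch a result are named. The genes and lists were chosen with earlier results of these data known.

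The alternatives were other normalizations, pseudocounts, filters, variance priors, row rules and tests, each library left out, and a replicate block. edgeR with each library left out was added after the data had been seen. Promoter sequences are RefSeq's for GRCr8 and were used for sequence only, since the tables are on rn6.

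One of the 3 rows nearest to *Vegfa* in pattern is not reported here.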

Additional observations from a re-analysis of the deposited data

How the results depend on the processing

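None of the 9 tested genes passed under the 28 alternatives (27 for *Vegfc*, which a filter of 1 FPKM removed; lowest adjusted p 0.259, *Flt1* with DESeq2), and 244 of 251 values kept their direction. Some of the 251 could not turn. limma without the trend or with a replicate block returns the same fold change, and the other row rules leave most genes on the same row. Without STZ replicate 3 *Vegfa* turned to -0.074 by limma (-0.074 to 0.41 with 1 library left out) and to -0.11 by edgeR on the counts. *Flt1* turned to -0.11 in the row of highest FPKM of any type. *Hif1a* turned to 0.038 without STZ replicate 2 and 0.054 without NOR replicate 1 by limma (-0.15 to 0.054 with 1 library left out), and to 0.036 and 0.073 by edgeR. Rows passing numbered 11, against 6 with a pseudocount of 0.1, 4 with no filter, 3 among protein_coding rows, 3 to 10 with 1 library left out, 6 with edgeR (2 to 14 with 1 library left out, chosen after seeing the data), 6 with edgeR without a filter and 99 with DESeq2. Without STZ replicate 1 the 11 became 3, and without STZ replicate 2 or 3 they became 5. Replicate numbers did not pair the libraries: deviations of same-numbered libraries correlated at -0.0092, 0.025 and 0.032. With the number as a replicate block limma passed 1 row and edgeR 0. Over 13 of the alternatives the median log2 fold change of the other angiogenic factors ran from -0.33 to -0.024. That of the other anti-angiogenic factors ran from -0.083 to 0.23, and that of the lens markers from -0.88 to 1.47. The cause of these changes was not tested. With 3 libraries a group, *Pgf*, *Vegfc* and *Vegfb* rest on the fewest counts.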

Other observations

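The protein_coding rows were ranked by how near their centred log2(FPKM + 1) lay to that of *Vegfa* over the 6 libraries, among 11151 rows at or above the mean of *Vegfc*. The 3 nearest included *Tnik*, on a row with a joined name, and LOC102551901. Their root mean square differences were both 0.13 on the log2 scale, against a spread of 0.38 for *Vegfa* itself. *Tnik*, a kinase of the Wnt pathway, measured 1.92, 1.47 and 3.59 FPKM in STZ replicates 1, 2 and 3, against 1.92, 1.48 and 1.30 FPKM in NOR replicates 1, 2 and 3. As for *Vegfa*, STZ replicate 3 was the highest library. These rows were ranked on the same 6 libraries, and the likeness is a description.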
